A study of Homo sapiens with 19 samples.

Results

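The data compared here are 2 measurements of one drug response: the change in gene expression of WiDr cells under GSK715, read once by nanopore full-length cDNA sequencing and once by short-read RNA-seq. The members are all 10 WiDr libraries of the 19 samples in the series, and for each gene the quantity of interest is the GSK715 minus DMSO log2 change in the nanopore libraries minus the same change in the short-read libraries. That difference of differences is called the interaction below. WiDr is a human colorectal carcinoma cell line, so each result describes a single line. Cells received the vehicle DMSO or 5 uM GSK715 (GSK3368715, labelled as a PRMT1 inhibitor) for 96 h. The short-read set held 3 DMSO and 3 GSK715 libraries made from poly(A)-selected RNA and sequenced in pairs on an Illumina instrument. The nanopore set (Oxford Nanopore Technologies, ONT) held 2 DMSO and 2 GSK715 libraries of full-length cDNA. The labels name different providers for the read types and do not say whether both came from the same cultures, so read type, provider and culture cannot be told apart.

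PRMT1 is the main type I protein arginine methyltransferase: it places asymmetric dimethyl marks on arginines of histones and of many RNA-binding proteins, the hnRNP proteins among them. GSK3368715 blocks type I enzymes as a class. In short-read libraries a gene's count grows with the length of its transcripts, since each molecule is cut into fragments, whereas in full-length cDNA sequencing 1 read stands for about 1 molecule. Levels (CPM, counts scaled to a common library size, on library sizes scaled by the trimmed mean of M-values, TMM) are therefore compared below between treatments within a read type, never between read types.

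Short-read libraries held 59612948 to 82390261 counts and ONT libraries 1449698 to 1667813 estimated counts, so the ONT response rests on far fewer reads and fewer libraries. All 18 colorectal epithelial markers had counts in every group, with summed levels of 20148 to 20520 CPM (short DMSO), 27255 to 28002 (short GSK715), 13997 to 14057 (ONT DMSO) and 17513 to 18952 (ONT GSK715). Of 20 stromal, endothelial and immune markers, 9 to 13 had counts in a group, and COL1A2, COL3A1, PDGFRA and MS4A1 were at 0 in all 4 groups. The summed level of those 20 moved with treatment in both read types, from 1458 to 1520 up to 3577 to 3776 CPM in short reads and from 4561 to 4724 up to 6053 to 6766 CPM in ONT. LYZ, lysozyme, made up most of it (means of 1443 and 3622 CPM in short reads and 4603 and 6368 in ONT), and the part of these markers in the results was not tested. Mitochondrially encoded genes took 6.07 to 6.49% of short-read counts under DMSO and 8.31 to 8.84% under GSK715, against 2.17 to 2.2% and 2.6 to 2.75% of ONT counts. The mean ONT read was 1175 and 1206 bases long under DMSO and 1095 and 1160 under GSK715.

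Both tables listed 61975 gene IDs, of which 24055 passed the count filter and were tested. In the short-read libraries 13036 genes were called at an adjusted p under 0.05 (54.2% of those tested; 6681 higher and 6355 lower under GSK715). The ONT libraries gave 763 calls (3.17%; 350 higher, 413 lower), and the interaction was called for 4787 genes (19.9%). The interaction was above 0, meaning an ONT change higher than the short-read change, for 2697 of those genes and below 0 for 2090. With plain library totals in place of TMM factors that split was 1802 to 3076, since that scaling shifted the interaction of the genes tested by a median of -0.21. More genes were also below 0 than above in 3 other alternatives. The splits were 2239 to 2327 when only genes of at least 5 CPM were fitted, 2286 to 2496 by limma and 1686 to 1742 with short reads thinned to the ONT depth. The remaining alternatives kept more genes above 0, so the direction of the split depended on the processing. Most differing genes were ones that moved in short reads and less in ONT: 4263 of the 4787 (89.1%) were called in short reads and not in ONT, and in 4168 (87.1%) the ONT fold change was the smaller one.

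Genes called in both read types mostly moved the same way. Of the 763 ONT calls, 618 were also called in the same direction in short reads (2.57% of genes tested; 81.0% of the ONT calls but 4.74% of the short-read calls), 265 higher and 353 lower. Opposite calls were made for 76 genes (0.316% of genes tested and 9.96% of the ONT calls). Of the 618 shared genes, 277 also had a called interaction, with the ONT change smaller in 240 of them, while for 351 the 95% interval of the interaction lay within 2-fold.

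Among the 10292 genes with a mean of at least 5 CPM in both read types, the responses correlated across genes with Pearson's r = 0.401 and Spearman's rho = 0.331 (a description; genes of the same libraries are not independent replicates). The slope of the ONT on the short-read change was 0.204. Changes had an SD of 0.881 in short reads and 0.448 in ONT on the log2 scale, with median standard errors (SE) of 0.068 and 0.183. The correlation was higher among more abundant genes, r = 0.455 at 20 CPM or more (5486 genes) and 0.619 at 100 CPM or more (839 genes), with slopes of 0.199 and 0.259. In this set of 10292, the interaction was called for 39.2% of genes (24.5% above 0, 14.8% below 0), short-read calls covered 79.3% and ONT calls 6.86%. These are calls of the main fit. When only genes of at least 5 CPM were fitted, 2239 interactions were called above 0 and 2327 below 0, so the excess above 0 depended on the filter and scaling.

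**Figure D1:**
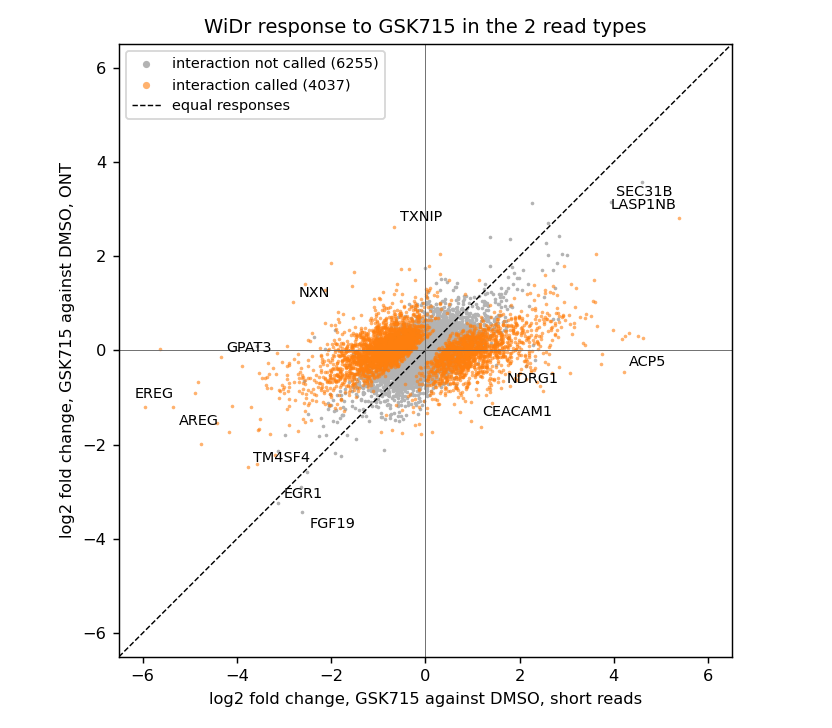
Each point is 1 gene of at least 5 CPM in both read types (10292 genes), with its GSK715 against DMSO log2 fold change in short reads on the x axis and in ONT on the y axis; orange points have a called interaction (4037). Most orange points lie nearer to the horizontal zero line than to the dashed line of equal responses.

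The ONT change followed the direction of large short-read changes at a fraction of their size. For the 42 genes that fell more than 8-fold in short reads (log2 below -3) the median log2 change was -3.39 in short reads and -0.83 in ONT, and 95.2% had the same sign. For the 33 genes above 3 the medians were 3.58 and 0.57, with 87.9% of the same sign. Between -0.5 and 0.5 (5172 genes) the signs matched for 55.5%. The bins were set on the short-read values, so the short-read medians only restate the bins; the ONT values were not used to place a gene.

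**Figure D2:**
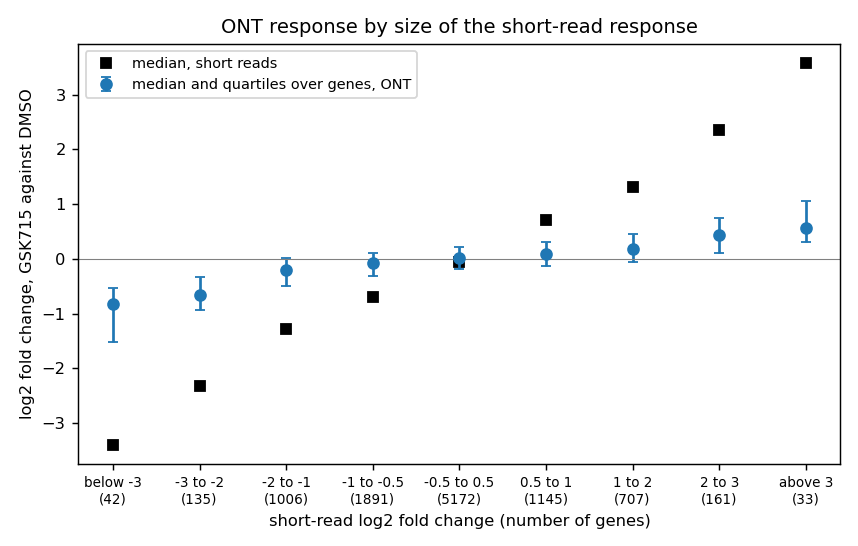
Genes of at least 5 CPM in both read types were binned by their short-read log2 fold change (x axis, gene numbers in brackets); the y axis gives the log2 fold change, squares the short-read median and circles the ONT median with bars from the lower to the upper quartile over genes. The ONT median runs from -0.83 in the lowest bin to 0.57 in the highest, between the squares and 0.

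The largest shared decrease by the rule used, the smaller of the 2 changes, was that of EGR1. EGR1 (chromosome 5, 138465490 to 138469315, GRCh38), an immediate early transcription factor induced by MAPK signalling, stood at 67.0, 69.3 and 64.0 CPM in the short DMSO libraries and 9.30, 6.23 and 7.25 under GSK715. In ONT its levels were 152.5 and 143.4 CPM under DMSO and 11.5 and 19.7 under GSK715. No treated library reached a control library in either read type, which was a condition for choosing a shared gene. The falls were 8.78-fold (log2 change -3.13, SE 0.12) and 9.49-fold (-3.25, SE 0.25), and the interaction was -0.11 (95% interval -0.79 to 0.56, edgeR adjusted p = 0.935). The interaction was not called, and its interval does not show that the changes were equal. FGF19 (chromosome 11, 69698232 to 69704642), a secreted fibroblast growth factor, went from 9.89, 11.1 and 10.0 CPM to 2.54, 1.12 and 1.40 in short reads and from 49.1 and 57.2 to 4.61 and 5.21 in ONT. Its log2 changes were -2.61 and -3.43, with an interaction of -0.82 (interval -1.94 to 0.29, edgeR adjusted p = 0.331), an interval that still allows a clearly larger change in ONT.

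POGLUT3, a protein O-glucosyltransferase, also fell in both read types: from 19.5, 21 and 24 to 3.45, 4.17 and 3.70 CPM in short reads, and from 11.3 and 16.8 to 1.15 and 3.47 CPM in ONT. LRP11 had log2 changes of -2.64 and -2.91, but 56.2% of its exonic bases overlap another annotated gene, so its reads are uncertain. In 3 other genes the decrease was shared while the ONT change was smaller by the interaction test. TM4SF4 (chromosome 3, 149473974 to 149503281), a tetraspanin-like membrane protein, went from 904.0, 912.2 and 945.0 CPM to 66.0, 69.1 and 67.3 in short reads, and from 1104 and 1089 to 202.9 and 190.4 in ONT. These are falls of 13.6-fold and 5.58-fold, with an interaction of 1.29 (SE 0.066, edgeR adjusted p = 1.38e-07). The neurotensin receptor gene NTSR1 fell 11.9-fold and 5.33-fold (interaction 1.16, edgeR adjusted p = 0.00469), a difference no longer called without either ONT GSK715 library or with short reads thinned to the ONT depth (interaction 0.78 to 1.26 over all alternatives). C7orf50 fell 9.11-fold and 4.65-fold (interaction 0.97, edgeR adjusted p = 0.00041), and BTBD19, with log2 changes of -3.13 and -2.12, had no called interaction (1.00, edgeR adjusted p = 0.175).

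The strongest shared increase by the rule used was that of SEC31B (chromosome 10, 100486642 to 100519864), a paralog of the COPII coat protein SEC31A. Its levels were 4.33, 3.34 and 3.02 CPM under DMSO and 53.6, 57.4 and 51.7 under GSK715 in short reads, and 1.54 and 1.73 against 13.8 and 15 in ONT. It rose 15.3-fold and 8.85-fold, with an interaction that was not called (-0.79, interval -2.08 to 0.51), and 18.4% of its exonic bases overlap another gene. LASP1NB (chromosome 17, 38925168 to 38929384) rose in both read types but by unequal amounts. It went from 2.65, 1.85 and 2.89 to 101.1, 106.8 and 103.5 CPM in short reads and from 12.8 and 15.6 to 102.0 and 96.7 CPM in ONT. The increases were 41.7-fold and 7.03-fold (interaction -2.57, SE 0.30, edgeR adjusted p = 6.53e-05).

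DGCR11, a noncoding gene, rose 7.14-fold and 5.34-fold, and NDRG2, a member of the NDRG family, rose 7.99-fold and 4.04-fold; neither interaction was called (-0.42 and -0.98), although that of NDRG2 was called when only genes of at least 5 CPM were fitted. The other shared increases chosen were KRT13, LINC01963, PRSS2 and MGAM2, with log2 changes of 2.27, 2.90, 2.60 and 1.79 in short reads and 3.13, 2.04, 2.02 and 2.37 in ONT, none with a called interaction. PRSS2 and MGAM2 have near-identical copies and KRT13 overlaps another gene, so reads of these 3 may be split between loci.

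**Figure D3:**
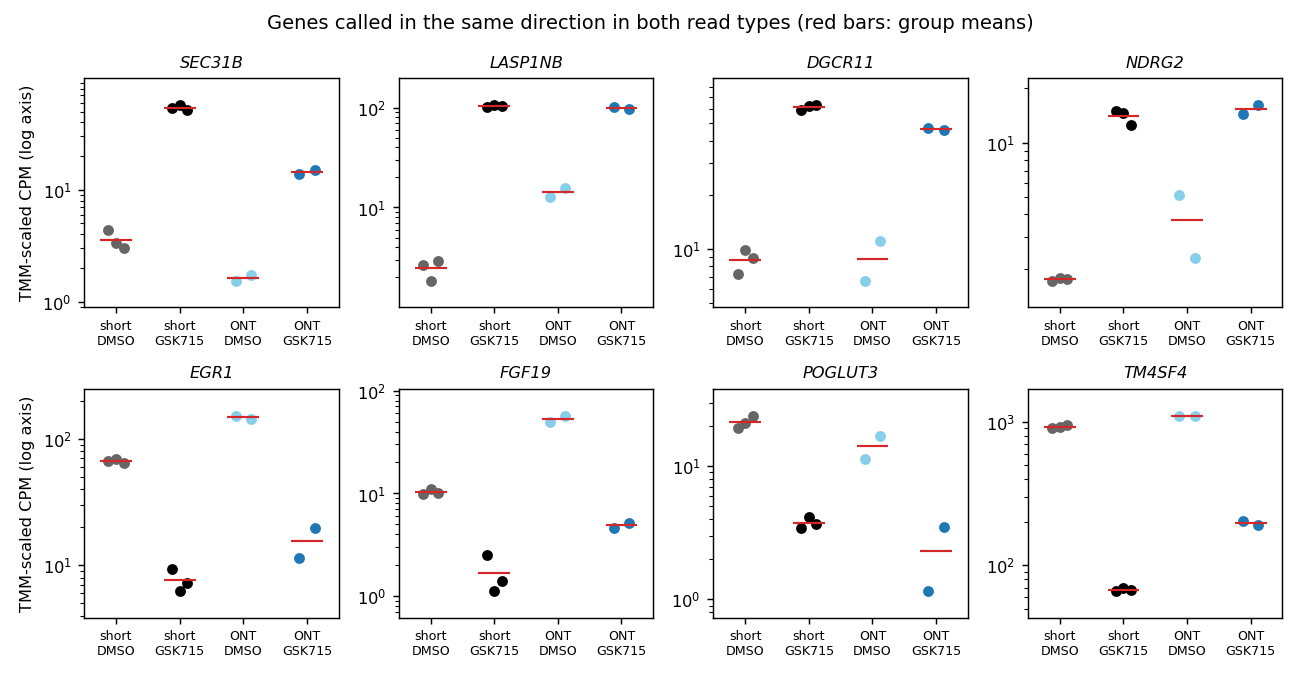
TMM-scaled CPM (log axis) of 8 genes called in the same direction in both read types, in each of the 3 short DMSO, 3 short GSK715, 2 ONT DMSO and 2 ONT GSK715 libraries (points), with the group mean as a bar. In every panel the treated libraries sit clear of the controls in both read types, which the choice of these genes required. For LASP1NB the increases were 41.7-fold in short reads and 7.03-fold in ONT.

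The 8 genes chosen for the largest interactions above 0 all fell in short reads; in ONT, EREG and AREG had smaller called decreases, SHANK2 had a called increase and the other changes were not called. EREG (chromosome 4, 74365143 to 74388751), which encodes the EGF receptor ligand epiregulin, stood at 965.1, 1017 and 1137 CPM in short DMSO libraries and at 16.1, 16 and 18.6 under GSK715. In ONT the levels were 139.2 and 142.2 against 65.1 and 56.7. The treated libraries were lower in both read types, by 61.6-fold in short reads and 2.31-fold in ONT (interaction 4.74, SE 0.17, edgeR adjusted p = 1.19e-08). Its neighbour AREG (chromosome 4, 74445134 to 74455009), the gene of the ligand amphiregulin, had the same pattern: 688.3, 713.7 and 740.5 against 18.7, 16.7 and 17 CPM in short reads, and 159.7 and 169.4 against 75.5 and 66.6 in ONT. It fell 40.9-fold and 2.31-fold (interaction 4.14, SE 0.12, edgeR adjusted p = 2.78e-09).

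GPAT3 (chromosome 4, 83535914 to 83605875), an acyltransferase of triglyceride synthesis, fell from 195.8, 188.6 and 199.1 to 9.80, 8.63 and 10.3 CPM in short reads. In ONT it read 8.70 and 9.83 CPM under DMSO and 9.22 and 7.52 under GSK715, so the ONT libraries of the treatments overlapped. The short-read fall was 20.3-fold, the ONT log2 change -0.14 (SE 0.28), and the interaction 4.2 (SE 0.33, edgeR adjusted p = 2.93e-06). ATP11A, a phospholipid flippase, and the noncoding LINC00662 had interactions of 4.15 and 3.99 with short-read log2 changes of -4.82 and -4.90, and the noncoding APCDD1L-DT one of 5.64, with a short-read change of -5.62 and an ONT change of 0.02 (SE 0.65). NHSL1 and the synaptic scaffold gene SHANK2 differed in sign: their log2 changes were -2.56 and -2.01 in short reads and 1.41 and 1.85 in ONT, the ONT change called for SHANK2 (edgeR adjusted p = 0.0356) and not for NHSL1 (edgeR adjusted p = 0.158).

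The 8 genes chosen for the largest interactions below 0 had short-read increases from a low level, with ONT changes that were not called. ACP5 (chromosome 19, 11574660 to 11579008), the gene of tartrate-resistant acid phosphatase, read 0.495, 0.642 and 0.523 CPM under DMSO and 10.3, 10.1 and 10.5 under GSK715 in short reads. In ONT it read 10.2 and 12.7 CPM under DMSO and 9.22 and 7.52 under GSK715. The short-read rise was 18.5-fold, the ONT log2 change -0.45 (SE 0.28, edgeR adjusted p = 0.724), and the interaction -4.66 (SE 0.34, edgeR adjusted p = 1.44e-06). CCDC69, NATD1 and FBXL16 had short-read log2 changes of 3.74, 4.32 and 4.23 and ONT changes of -0.28, 0.36 and 0.31, none of the latter called. MIR210HG, the host transcript of a hypoxia-linked microRNA, had a short-read change of 3.07 and an ONT change of -0.49. The remaining members chosen here, AMY2B, IGFL2-AS1 and B3GAT1-DT, had interactions of -4.36, -4.21 and -3.93; AMY2B belongs to a family of near-identical amylase genes.

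Opposite calls in the 2 read types made up 0.316% of genes tested and 9.96% of the ONT calls. Short reads fell and ONT rose for 48 genes, and short reads rose and ONT fell for 28. The genes described next were the 4 in each direction with the smallest interaction adjusted p. NXN (chromosome 17, 799313 to 979770), the gene of the redox protein nucleoredoxin, read 92.9, 92.3 and 96.5 CPM under DMSO and 11.9, 15.3 and 13.1 under GSK715 in short reads, but 66.0 and 57.8 against 135.4 and 116.9 in ONT. It fell 6.98-fold by one measure and rose 2.03-fold by the other (interaction 3.83, SE 0.16, edgeR adjusted p = 5.49e-08). TXNIP (chromosome 1, 145992435 to 145996600), a thioredoxin-binding arrestin induced by glucose, went from 1093, 1109 and 1137 to 720.7, 694.9 and 701.3 CPM in short reads and from 13.8 and 23.1 to 111.2 and 112.9 in ONT. That is a fall of 1.58-fold against a rise of 6.15-fold (interaction 3.28, SE 0.15, edgeR adjusted p = 6.24e-08).

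The histone methyltransferase gene NSD2 and the MAPK pathway kinase gene BRAF were of the same kind, with log2 changes of -1.54 and -0.99 in short reads and 0.68 and 1.11 in ONT. In the other direction, NDRG1, a stress- and hypoxia-induced gene, read 161.6, 162.8 and 158.5 CPM under DMSO and 481.3, 492.0 and 491.3 under GSK715 in short reads. In ONT it read 287.2 and 302.4 against 182.7 and 154.5. It rose 3.03-fold in short reads and fell 1.75-fold in ONT (interaction -2.41, SE 0.085, edgeR adjusted p = 1.19e-08). CEACAM1 (chromosome 19, 42507304 to 42561234), an epithelial adhesion receptor, rose from 107.7, 109.2 and 115.6 to 271.4, 274.1 and 266.0 CPM in short reads and fell from 76.8 and 75.7 to 33.4 and 46.3 in ONT (interaction -2.22, SE 0.13). The iron exporter gene SLC40A1 and the tight junction gene CLDN3 had short-read changes of 1.36 and 1.10 and smaller ONT changes of -0.39 and -0.30. For all 8 of these genes the interaction stayed called, in the same direction, under every alternative run.

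**Figure D4:**
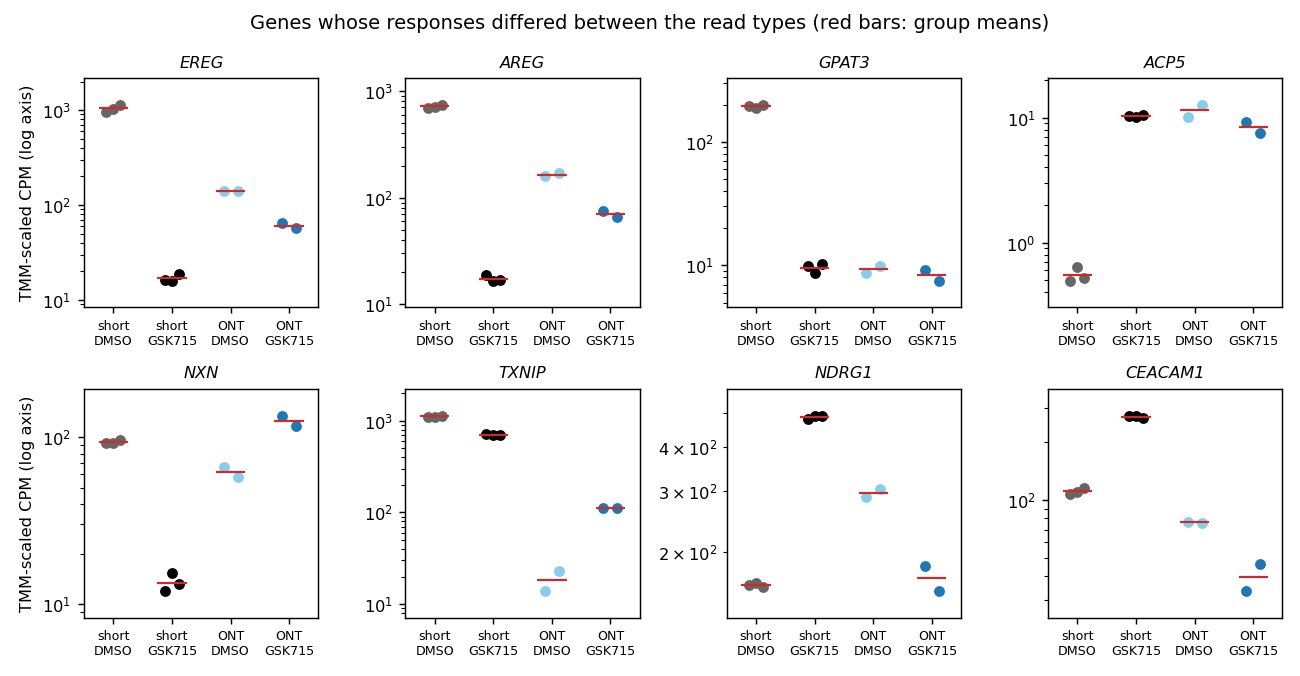
TMM-scaled CPM (log axis) in each library (points, group mean as a bar) of 4 genes with large called interactions (EREG, AREG, GPAT3, ACP5) and 4 called in opposite directions (NXN, TXNIP, NDRG1, CEACAM1). NXN falls 6.98-fold in the short-read panels' groups and rises 2.03-fold in the ONT groups.

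The mRNA of the enzyme named as the target moved little. PRMT1 (chromosome 19, 49675786 to 49689029) read 367.3, 376.3 and 376.2 CPM under DMSO and 342.4, 343.2 and 330.5 under GSK715 in short reads, and 126.4 and 123.7 against 132.6 and 107.1 in ONT. Its log2 changes were -0.14 (SE 0.047) and -0.06 (SE 0.089), with an interaction of 0.08 (interval -0.14 to 0.30, edgeR adjusted p = 0.711). PRMT5, the main type II enzyme, had changes of -0.54 and -0.09 and an interaction of 0.45 (interval 0.08 to 0.81, edgeR adjusted p = 0.234). In the list of 12 arginine methyltransferases and their partners, 11 were tested and 4 had a called interaction: RIOK1 (1.75), a PRMT5 partner, PRMT7 (-1.06), CLNS1A (0.39), another PRMT5 partner, and PRMT3, which lies outside the naming rule and was picked after its values were seen (1.14). The PRMT7 call was lost without ONT DMSO library 1, ONT DMSO library 2 or ONT GSK715 library 1, and that of CLNS1A with library totals or thinned short reads.

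The gene lists below give edgeR counts and, where ONT calls are few, those of limma with a spread per read type, which called 253 genes in ONT against 763 by edgeR. They are read against all genes tested, of which 11.2% had a called interaction above 0 and 8.69% below 0, with medians of 0.04 in short reads, 0.00 in ONT and -0.04 for the interaction. Over the same genes 27.8% rose and 26.4% fell in short reads, 1.45% rose and 1.72% fell in ONT, and 1.1% rose and 1.47% fell in both. Among genes of at least 5 CPM in both read types, where most list members lie, those medians were -0.14, 0.00 and 0.13. The lists are also to be read against the shares at that level. There 24.5% had a called interaction above 0 and 14.8% below 0, with 79.3% called in short reads and 6.86% in ONT. When only such genes were fitted, the median interaction was -0.01. List medians are descriptions over members that share libraries.

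**Figure D5:**
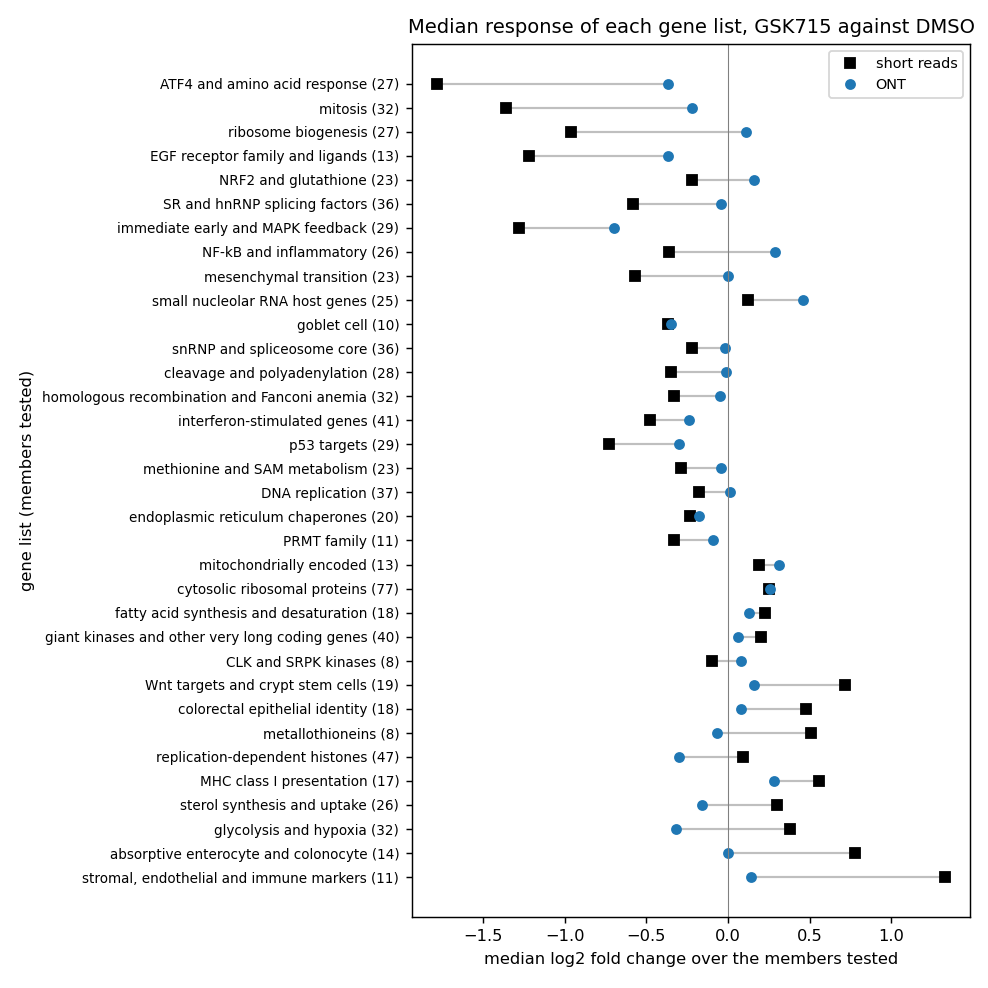
Median log2 fold change (x axis, GSK715 against DMSO) over the tested members of each of 34 gene lists (y axis, members tested in brackets), in short reads (squares) and ONT (circles), ordered by the median interaction. The widest gaps above 0 are those of the ATF4, mitosis and ribosome biogenesis lists, where the short-read medians were -1.78, -1.36 and -0.96 and the ONT medians -0.37, -0.22 and 0.11. Below 0 the lowest median interaction, -1.49, is that of the stromal, endothelial and immune markers (medians 1.33 and 0.14). Of these 11 members tested, 4 had no counts in at least 1 group.

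MAPK signalling turns on immediate early genes and its own feedback inhibitors, and EGF receptor ligands feed that pathway. Of 29 immediate early and MAPK feedback genes tested, 26 fell in short reads and 12 fell in ONT, and all 12 of these fell in both (in ONT 17 at an unadjusted p under 0.05, 13 by DESeq2, 6 by limma). The list medians were -1.28 in short reads and -0.70 in ONT, and the interaction was called above 0 for 15 and below 0 for 2. DUSP6, an ERK phosphatase, went from 199.6, 201.3 and 208.5 to 61.4, 58.7 and 62.1 CPM in short reads and from 86.0 and 90.8 to 38.6 and 30.1 in ONT, with log2 changes of -1.74 and -1.36 and an interaction that was not called (0.38, edgeR adjusted p = 0.0689); 40.5% of its exonic bases overlap another gene. FOS, an AP-1 subunit, fell more in ONT (-1.38) than in short reads (-0.84), with an interaction of -0.54 that was lost in 5 of 20 alternatives. MYC, the growth-promoting transcription factor, fell in short reads (450.2, 478.8 and 455.5 to 109.9, 111.1 and 112.0 CPM). In ONT its libraries overlapped, at 36.3 and 50.9 CPM under DMSO and 43.8 and 31.3 under GSK715 (interaction 1.85, SE 0.19, edgeR adjusted p = 1.92e-05). JUN read 143.2, 142.6 and 143.7 against 244.3, 234.9 and 233.2 CPM in short reads and 42.0 and 35.8 against 28.8 and 28.4 in ONT, an increase called in short reads beside an ONT log2 change of -0.45 (edgeR adjusted p = 0.213).

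Of 13 EGF receptor family genes and ligands tested, 9 fell in short reads and 4 in ONT (1 by limma), all 4 in both, with medians of -1.22 and -0.37. The interaction was above 0 for 6 and below 0 for 2. The latter were the receptors ERBB2 and ERBB3, which rose in short reads (log2 1.2 and 0.79) beside ONT changes of 0.07 and 0.14 that were not called. ERBB2 read 119.9, 125.4 and 114.0 against 272.1, 277.8 and 277.9 CPM in short reads and 40.4 and 42.2 against 41.5 and 45.1 in ONT.

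ATF4 is the transcription factor of the integrated stress response and drives amino acid synthesis and uptake. Of 27 ATF4 and amino acid response genes tested, 24 fell in short reads, 8 fell in ONT and 23 had a called interaction above 0, against 1 below 0. The ONT decreases numbered 15 at an unadjusted p under 0.05, 9 by DESeq2 and 1 by limma, while the interactions above 0 numbered 24 by DESeq2 and 20 by limma. The medians were -1.78 in short reads, -0.37 in ONT and 1.47 for the interaction. ASNS, asparagine synthetase, went from 1253, 1262 and 1284 to 197.6, 208.4 and 206.6 CPM in short reads and from 51.7 and 48.0 to 39.2 and 38.2 in ONT. It fell 6.20-fold in short reads, while the ONT log2 change of -0.37 (SE 0.096) was not called (edgeR adjusted p = 0.262), and the interaction was 2.27 (SE 0.11, edgeR adjusted p = 9.51e-08). DDIT4, a stress-induced inhibitor of mTORC1, had changes of -1.44 and -0.15. DDIT3, the gene of the stress factor CHOP, fell in both (-2.03 and -1.15). ASNS, DDIT4 and DDIT3 each share over 10% of their exonic bases with another gene. The stress gene NUPR1 was the member below 0: it rose from 22.0, 24.9 and 21.1 to 134.0, 132.0 and 129.8 CPM in short reads and from 68.1 and 82.7 to 190.2 and 177.1 in ONT (5.82-fold and 2.45-fold, interaction -1.25, SE 0.13).

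ATF4 binds a composite element with the letters TGATGNAA, here searched on both strands of the 300 bases around each gene's start (RefSeq, GRCh38.p14). It was present in 5 of the 23 members with a promoter sequence (21.7%) and in 1003 of all 27305 promoters (3.7%). Of those 23 members, the motif was present in 4 of the 20 with a called interaction and 1 of the 3 without one. The promoter of ASNS is shown because, of the members with the motif, it had the interaction with the smallest p. It lies on the minus strand of chromosome 7, 97872359 to 97872658, with the motif in capitals:
ASNS: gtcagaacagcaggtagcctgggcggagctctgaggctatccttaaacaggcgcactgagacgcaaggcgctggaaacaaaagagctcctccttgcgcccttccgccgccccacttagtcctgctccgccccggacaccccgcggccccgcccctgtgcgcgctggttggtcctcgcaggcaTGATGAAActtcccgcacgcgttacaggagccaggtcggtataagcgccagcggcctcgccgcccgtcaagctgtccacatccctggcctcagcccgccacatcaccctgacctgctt

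Cell division genes had the same contrast between the read types. All 32 mitosis genes tested fell in short reads, 1 fell in ONT (CCNB2, a mitotic cyclin), and the interaction was above 0 for 26 and below 0 for 0 by edgeR. At an unadjusted p under 0.05, and by DESeq2 or limma, the latter count was also 0. The ONT decreases numbered 11 at an unadjusted p under 0.05, 3 by DESeq2 and 0 by limma. The medians were -1.36, -0.22 and 1.24. CCNB2 read 158.9, 154.8 and 164.0 against 60.7, 61.6 and 60.4 CPM in short reads and 211.9 and 208.7 against 171.8 and 163.2 in ONT (log2 -1.39 and -0.33). UBE2C, the ubiquitin-conjugating enzyme of the anaphase-promoting complex, fell from 102.7, 107.0 and 100.3 to 42.9, 41.3 and 41.3 CPM in short reads. In ONT its treated libraries lay just under the controls, at 354.5 and 361.7 against 362.4 and 368.3, a log2 change of -0.03 (SE 0.056) that was not called (interaction 1.28, SE 0.068, edgeR adjusted p = 1.8e-07). The mitotic kinase gene PLK1 had log2 changes of -1.40 and 0.14, and 12.5% of its exonic bases overlap another gene. DNA replication genes were more mixed: of 37 tested, the interaction was above 0 for 7 and below 0 for 4, and the median interaction of 0.16 turned to -0.05 with library totals. None was called in ONT by edgeR, DESeq2 or limma, with 4 higher and 2 lower at an unadjusted p under 0.05.

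Of 27 ribosome biogenesis genes tested, 26 fell in short reads and 21 had a called interaction above 0. None fell in ONT by edgeR (1 at an unadjusted p under 0.05, 1 by DESeq2, 0 by limma), and none had an interaction below 0 (0 at an unadjusted p and by either other tool). The medians were -0.96, 0.11 and 1.02. NOP58, a core protein of box C/D small nucleolar particles, went from 251.5, 263.5 and 278.7 to 73.7, 75.3 and 76.5 CPM in short reads and from 54.8 and 64.8 to 43.2 and 42.3 in ONT. Its log2 changes were -1.82 and -0.48 (edgeR adjusted p = 0.0535 in ONT), with an interaction of 1.34 (SE 0.13). The nucleolar GTPase gene GNL3 had changes of -0.89 and 0.22. NPM1, the nucleolar chaperone nucleophosmin, was the exception that rose in both read types, by 0.35 and 0.40, with an interaction of 0.05 that turned to -0.16 with library totals.

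Splicing regulators include well-known substrates of arginine methylation. Of 36 SR and hnRNP genes tested, 30 fell and 4 rose in short reads, 4 fell and 3 rose in ONT (0 and 0 by limma), and the interaction was above 0 for 23 (15 by limma). It was below 0 for none by edgeR (0 at an unadjusted p under 0.05, by DESeq2 and by limma). The medians were -0.58, -0.04 and 0.62. HNRNPK fell in short reads (1053, 1060 and 1045 to 611.4, 616.8 and 601.9 CPM) beside overlapping ONT libraries (279.0 and 298.9 against 300.9 and 296.3), with log2 changes of -0.79 and 0.05 and an interaction of 0.84 (SE 0.062, edgeR adjusted p = 1.71e-06). SRSF5 rose in both, more in ONT (log2 0.21 and 0.69, interaction 0.48, lost with library totals, with thinned short reads and under limma). Core spliceosome genes (36 tested) had 13 interactions above 0 and 3 below, with medians of -0.22 and -0.02.

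Glycolysis and hypoxia genes had medians of opposite sign, 0.38 in short reads and -0.32 in ONT. Of 32 tested, 17 rose and 10 fell in short reads, and the interaction was below 0 for 17 and above 0 for 3. In ONT 8 fell (17 at an unadjusted p under 0.05, 12 by DESeq2, 3 by limma), and none rose by edgeR (0 at an unadjusted p under 0.05, by DESeq2 and by limma). Besides NDRG1, the oxygen sensor gene EGLN3 was called in opposite directions: 29.1, 33.6 and 34.5 against 69.5, 68.4 and 71.5 CPM in short reads, and 99.3 and 104.1 against 67.4 and 59.6 in ONT (interaction -1.78, SE 0.13, edgeR adjusted p = 2.04e-06). The glucose transporter gene SLC2A1 fell in both but more in ONT, from 867.9, 874.6 and 845.1 to 705.3, 711.7 and 696.7 CPM and from 264.1 and 262.5 to 126.2 and 128.5 (log2 -0.29 and -1.05, interaction -0.76, SE 0.064). LDHA, lactate dehydrogenase A, had log2 changes of -0.42 and -0.71. VEGFA and ENO1 were of the other kind, with short-read changes of -1.26 and -0.53 and ONT changes of -0.54 and -0.09.

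The core letters of the hypoxia response element, ACGTG, were present on either strand in 12 of 27 promoters of this list (44.4%) and in 5900 of all 27305 (21.6%). Of those 27 members, 8 of the 17 with a called interaction and 4 of the 10 without one had it. The promoter of GPI, glucose-6-phosphate isomerase, is shown as an example with the motif and a called interaction of -0.66 (log2 changes of 0.48 and -0.19). The sequence covers chromosome 19, 34364742 to 34365041, on the plus strand (RefSeq, GRCh38.p14), with the motif in capitals:
GPI: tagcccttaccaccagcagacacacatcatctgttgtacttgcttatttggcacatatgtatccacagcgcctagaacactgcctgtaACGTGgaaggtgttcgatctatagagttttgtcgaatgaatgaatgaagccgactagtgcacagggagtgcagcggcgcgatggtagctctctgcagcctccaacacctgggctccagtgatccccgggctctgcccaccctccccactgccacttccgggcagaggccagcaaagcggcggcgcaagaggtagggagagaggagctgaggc

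Sterol genes, which rise when SREBP2 is active, had medians of 0.30 in short reads and -0.16 in ONT. Of 26 tested, 13 rose and 8 fell in short reads. In ONT 2 fell and none rose by edgeR (2 at an unadjusted p under 0.05, 0 by DESeq2 and limma). The interaction was below 0 for 9 and above 0 for 3. INSIG1, a sterol sensor that is itself a SREBP target, rose from 13.4, 10.6 and 10.2 to 80.7, 84.4 and 84.5 CPM in short reads. In ONT it stood at 28.7 and 24.3 against 36.3 and 38.8 CPM, a log2 change of 0.50 that was not called (interaction -2.37, SE 0.23, edgeR adjusted p = 1.45e-05). MVD, of the mevalonate pathway, had changes of 1.35 and -0.12, while CYP51A1, a sterol demethylase, fell in short reads (-1.55) beside an ONT change of -0.26 that was not called. For CYP51A1, 83.2% of the exonic bases overlap another gene.

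NRF2 targets defend against oxidants and supply glutathione. Of 23 tested, 14 fell and 8 rose in short reads, 2 fell and 6 rose in ONT (0 and 1 by limma), and the interaction was above 0 for 11 and below 0 for 4. TXNRD1, thioredoxin reductase, went from 2779, 2778 and 2906 to 994.6, 987.8 and 978.9 CPM in short reads and from 129.0 and 128.3 to 111.8 and 122.1 in ONT (log2 -1.51 and -0.14, interaction 1.38, SE 0.074, lost under limma with an adjusted p of 0.0973). The ferritin genes FTH1 and FTL rose in both read types, by 0.61 and 0.65 for FTH1 and 0.86 and 0.64 for FTL. Their interactions were 0.05 and -0.22, not called; that of FTH1 turned to -0.17 with library totals, and FTH1 has many pseudogene copies. The FTL interaction became called in 5 of 20 alternatives (library totals, a minimum of 5 CPM, the replicate block, thinned short reads, and without short DMSO library 2), within -0.44 to -0.16 over all of them.

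Many ribosomal protein mRNAs rose in both read types by edgeR. Of 77 cytosolic ribosomal protein genes tested, 59 rose in short reads and 38 in ONT, 34 of them in both, and the medians were 0.25 and 0.26. The ONT count depended on the tool, at 51 by DESeq2 and 4 by limma. The interaction was above 0 for 9 and below 0 for 8 (1 and 3 by limma), and its median was 0.00, ranging from -0.22 to 0.05 over the alternatives. RPL37 rose from 327.9, 345.3 and 310.5 to 625.1, 645.9 and 602.9 CPM in short reads and from 154.1 and 127.8 to 233.4 and 251.8 in ONT (log2 0.93 and 0.78), with an interaction called only with library totals or a minimum of 5 CPM. RPS29 was an exception, with changes of 1.19 and 0.09 (interaction -1.10, SE 0.11). Ribosomal protein genes have many processed copies, so their counts carry some uncertainty.

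All 13 mitochondrially encoded mRNAs were tested: 7 rose in short reads, 6 in ONT and 6 in both, and 2 had a called interaction, below 0. By limma 9 rose in short reads, and in ONT none did (8 at an unadjusted p under 0.05 in the edgeR fit, 6 by DESeq2); limma called no interaction. The interaction of MT-ND5, a complex I subunit, was -0.19 (edgeR adjusted p = 0.0463) and was lost in 7 of 19 alternatives. MT-CO1, a subunit of cytochrome c oxidase, had changes of 0.66 and 0.67. Of 25 small nucleolar RNA host genes tested, 8 rose in ONT (4 by limma), while 9 rose and 7 fell in short reads, and 3 were called in opposite directions. SNHG3 read 57.3, 58.8 and 58.5 against 51.5, 52.8 and 50.4 CPM in short reads and 241.1 and 248.0 against 462.8 and 412.7 in ONT (interaction 1.01, SE 0.078, edgeR adjusted p = 2.32e-06). SNHG7 rose in both, by 2.17 and 1.19. SNHG3 and SNHG7 each share over 10% of their exonic bases with another gene.

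Of 29 p53 target genes tested, 16 fell and 6 rose in short reads, and 5 fell in ONT (3 by limma), all 5 in both. CDKN1A, the cell cycle inhibitor p21, fell from 213.0, 213.4 and 218.3 to 58.7, 57.7 and 55.4 CPM in short reads and from 39.4 and 37.0 to 17.3 and 15.6 in ONT. The stress cytokine gene GDF15 fell 5.39-fold and 2.78-fold (interaction 0.95, SE 0.084, edgeR adjusted p = 6.76e-06). The CDKN1A interaction of 0.69 was lost in 5 of 20 alternatives, library totals among them. The list's median interaction of 0.19 turned to -0.02 with library totals.

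Among 17 MHC class I presentation genes, 14 rose in short reads and 3 in ONT, all 3 in both, with medians of 0.56 and 0.28. The ONT increases numbered 9 at an unadjusted p under 0.05, 4 by DESeq2 and 0 by limma. B2M, the light chain of MHC class I, rose from 737.4, 779.7 and 755.1 to 1124, 1109 and 1053 CPM in short reads and from 2448 and 2431 to 3152 and 2874 in ONT. Its interaction of -0.23 was called (edgeR adjusted p = 0.0269) and lost in 4 of 20 alternatives. The peptide-loading genes TAPBP and CALR rose in short reads (1.06 and 0.94) beside ONT changes of 0.22 and -0.01.

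Transcript length moved with the interaction to a small extent. Among genes of at least 5 CPM in both read types the median interaction was 0.04 where the longest annotated transcript had 2000 to 3000 bases (2140 genes), 0.21 at 5000 to 8000 bases (2090 genes) and 0.23 above 8000 bases (880 genes). The share of genes with a called interaction was 41.1, 37.5 and 38.9% in these groups. By gene type, the median interaction was 0.14 for 9783 protein-coding genes, -0.09 for 115 long intergenic noncoding genes and -0.22 for 118 antisense genes, whose reads may come from the gene on the other strand. The part of length in the results was not tested.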

How the data were processed

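RNA of WiDr cells was measured in 6 short-read and 4 ONT libraries. The authors deposited whole-number counts per gene for the short reads and estimated counts per gene for ONT (15.1% of values not whole, rounded here), and a table of read statistics with the percent of full-length reads. Per the submitters' processing notes the build was GRCh38 and the series used cutadapt, HISAT2, StringTie, DESeq2, minimap2 and Salmon; the step of each, versions and strandedness are not given in the sources used here. Columns marked NC were taken as DMSO, the only other WiDr group.

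Gene IDs shared by both tables were filtered with filterByExpr (minimum count 10, total 15) and fitted together in edgeR 4.0.16 (R 4.3.3): TMM scaling over 10 libraries, 1 coefficient per group, quasi-likelihood F-test, Benjamini-Hochberg threshold 0.05. Both read types thus share 1 spread estimate per gene. Estimated apart, their spreads differed. The common coefficient of variation between libraries of a group was 0.188 in short reads and 0.0493 in ONT, and 0.162 over all 10 libraries. The ONT standard errors and the interaction p-values rest on the shared estimate. Its part in the calls was not tested beyond the limma and separate fits. The SE is approximate, the absolute log2 change divided by the root of F. CPM use the fit's scaled library sizes. Coordinates, lengths and overlaps come from GENCODE 29. Alternatives used DESeq2 1.42.0 and limma 3.58.1. The fit was tested on simulated data drawn with 1 spread per gene for both read types, so that test does not cover unequal spreads.

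Nothing in the labels says that replicates came from separate cultures, so p-values may measure technical spread. Replicate pairs of each group differed by more than sampling noise (chi-square per gene 9.84 to 18.8 in short reads, 1.2 and 1.31 in ONT). No depth correction was made in the main fit.

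Named genes needed 5 CPM in both read types: the 8 largest shared changes each way by the smaller of the 2 changes, the 8 largest called interactions each way, 4 opposite calls each way, up to 2 members per list of each kind, PRMT1 and PRMT5. Shared genes were chosen only where the GSK715 and DMSO libraries did not overlap in either read type. The largest interactions were chosen only where they did not overlap in short reads or in ONT. That separation is therefore part of the choice and not a result. Members and lists were chosen with earlier results of these data known. Values of 2 genes that this rule selects are not reported here.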

Additional observations from a re-analysis of the deposited data

Results flagged for a closer look

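The treatment effect differed between the read types for 8 genes called in opposite directions, where the difference itself was tested by the interaction: NXN (3.83), NSD2 (2.21), TXNIP (3.28) and BRAF (2.10), which fell in short reads and rose in ONT, and NDRG1 (-2.41), SLC40A1 (-1.75), CLDN3 (-1.40) and CEACAM1 (-2.22), which rose in short reads and fell in ONT. These are log2 differences, ONT change minus short-read change.

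Part of the ONT counts lay outside the comparison, in rows whose IDs are not Ensembl IDs (3991 IDs), which the short-read table does not share. They took 9.31 and 8.49% of the estimated counts in the DMSO libraries and 9.62 and 9.81% in the GSK715 libraries. The 2 DMSO shares lay further apart than the nearest DMSO and GSK715 shares, and a difference between the treatments was not tested. What these IDs are was not tested.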

How the results depend on the processing

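The interaction count stayed within 1.5 times the main 4787 under every alternative, from 3428 (short reads thinned to ONT depth) to 5486 (DESeq2), and 63.8 to 99.6% of the main calls were kept, all in the same direction. Leaving out 1 library gave 3485 to 4775 interaction calls, 11903 to 12961 short-read calls, 392 to 753 ONT calls and 334 to 601 shared calls; without any 1 ONT library its treatment had a lone sample, assumed to vary like the other groups, and the ONT calls were 392, 436, 473 and 506 and the shared calls 334, 357, 379 and 410. Short-read calls were 8401 with a minimum of 5 CPM (fewer genes tested) and 6726 after thinning. With a spread per read type (limma) ONT calls were 253 and shared calls 204; the cause was not tested. DESeq2 gave 1116 ONT calls and separate edgeR fits gave 1122. With library totals the interaction was -0.16 for NPM1 and -0.17 for FTH1, reversed in sign, the median shift over genes being -0.21; short-read and ONT changes shifted by medians of 0.15 and -0.07. Opposite calls ranged from 16 (limma) to 156 (DESeq2).

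With the replicate number as a block the counts were 4384 interaction, 12363 short-read, 536 ONT and 446 shared calls. Deviations of same-numbered libraries from their group means were nearly uncorrelated over genes (r = 0.00757, 0.0101 and 0.0323 in short reads, -0.00259 in ONT). Counting noise also lowers such an r, so it cannot show whether same-numbered samples share more than a number. Of 142 named genes with a called interaction, 124 to 142 kept it under the alternatives that tested all of them. Many of these genes were chosen for a large interaction or a small p in the main fit, which favours keeping the call. The minimum of 100 CPM for the correlation was added after seeing the data. The median SE was 0.183 in ONT and 0.068 in short reads; the part of depth in this was not tested beyond the thinning.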

Other observations

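Of 41 interferon-stimulated genes tested, 25 fell and 8 rose in short reads, and 3 fell and 2 rose in ONT (1 and 0 by limma), all 5 also called in the same direction in short reads. In short reads 54.2% of all genes tested and 79.3% of those of at least 5 CPM in both read types were called. The interaction was above 0 for 8 and below 0 for 5, together 31.7% of the members. That share lies between the 19.9% of all genes tested and the 39.2% of genes of at least 5 CPM. The list's median interaction of 0.21 turned to -0.01 with library totals. IFIH1, a sensor of double-stranded RNA, read 50.9, 52.2 and 53.5 against 11.9, 14 and 13.2 CPM in short reads and 10.7 and 10.4 against 14.4 and 16.2 in ONT (interaction 2.53, SE 0.22, edgeR adjusted p = 7.27e-06). UBE2L6, the ISG15-conjugating enzyme, rose in both, by 2.23 and 0.54 on the log2 scale. Of 32 homologous recombination and Fanconi anemia genes tested, 6 had an interaction above 0 and 2 below. BRCA1 fell in short reads (-1.05) beside an ONT change of 0.20, and FANCI fell in both (-0.69 and -0.66).

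Among 19 Wnt target and crypt stem cell genes tested, the interaction was above 0 for 4 and below 0 for 7. ASCL2, a stem cell transcription factor of the crypt, read 2.67, 1.44 and 2.59 against 19.8, 20.8 and 20.7 CPM in short reads and 28.2 and 37.0 against 66.3 and 56.1 in ONT (log2 3.19 and 0.92, interaction -2.27, SE 0.32). Among 26 inflammatory genes tested, LCN2, an iron-binding antimicrobial protein, fell in both, from 582.3, 610.6 and 596.6 to 130.7, 135.9 and 129.2 CPM in short reads and from 605.0 and 600.7 to 289.9 and 272.6 in ONT (log2 -2.18 and -1.10). NFKBIA, the inhibitor of NF-kB, rose more in ONT (1.07) than in short reads (0.55), with an interaction of 0.53 (edgeR adjusted p = 0.0072) that was lost with library totals and without either ONT DMSO library or ONT GSK715 library 2. The keratin genes KRT8 and KRT18 rose by 0.49 and 0.76 in short reads and by 0.48 and 0.70 in ONT, with interactions called with library totals or a minimum of 5 CPM, and for KRT18 also without ONT GSK715 library 1.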
